A study of Mus musculus with 2 samples.

Results

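The genes described are those of the proteasome, the protease of the cytosol and nucleus that degrades ubiquitin-tagged proteins, together with its immune form. They were chosen by symbol, as every gene named Psma to Psmg with a number, and 49 of 22180 named genes on the array met that rule. Of the 49, 47 encode proteasome subunits, activators, an inhibitor or assembly chaperones. The other two, Psmc3ip (a recombination factor) and Psme3ip1 (a partner of an activator), share the name but are no part of the particle. The arrays measured RNA of small intestinal subepithelial myofibroblasts of wild-type BALB/c mice, which are contractile stromal cells beneath the gut epithelium. The non-stimulated group was cultured alone, and the stimulated group was given homogenised eosinophils of the intestine (5 mg/ml), both for 1 day. RNA of 3 cultures was pooled for each condition and read on 1 GeneChip Mouse Gene 2.0 ST array, so there are 2 arrays, no replicate error and no test between conditions. The cells are a culture, and the stimulus was a homogenate of eosinophils and not a single eosinophil product.

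The catalytic core of the proteasome, the 20S particle, is a barrel with outer rings of alpha subunits, which gate entry, and inner rings of beta subunits, some of which cut. A 19S particle caps the barrel, where its ATPases unfold the substrate and its other subunits recognise and remove ubiquitin. In cells that meet interferon-gamma, the cutting subunits Psmb5, Psmb6 and Psmb7 are exchanged in new particles for Psmb8, Psmb9 and Psmb10, which gives the immunoproteasome and changes the peptides offered on MHC class I. When proteasome activity runs short, the transcription factor NRF1 (gene Nfe2l1) is known to raise the subunit genes together.

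Levels are the authors' deposited log2 values, and each difference is the stimulated minus the non-stimulated value on the log2 scale. Background was set on each array from 1407 probesets of receptor genes for odours and pheromones, as their 95th percentile, which was 5.58 without and 5.57 with homogenate. All 12 fibroblast markers, among them Vim (13.10 without and 13.16 with homogenate), were above it. Of these 12, Pdgfra differed by 0.56, and the contractile genes Tagln and Acta2 by -0.41 and -0.28. Of 9 eosinophil markers measured, 2 were above it without and 1 with homogenate. A label field that names eosinophils as the source is thus not borne out by these levels. A probeset's height depends on its probes, so levels are compared between arrays and not between genes. Less RNA per cell and fewer cells that make it cannot be told apart in pooled cultures.

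No proteasome gene measured above background differed by much between the arrays, and most of these genes read slightly higher with homogenate. Of the 49 genes, 45 were above background on both arrays and 4 on neither. Among the 45, 33 read higher with homogenate (73.3%) and 12 read lower, where 50.2% of all 14068 genes above background read higher and 48.2% lower. None of the 45 reached 1.2-fold in either direction, while 13.0% of all genes did, 6.11% upwards and 6.91% downwards. None reached 2-fold, which 0.235% of all genes passed. The median difference of the 45 was 0.06 against 0.00 for all genes, and it ran from -0.09 for Psmg3 to 0.22 for Psmd10. Proteasome genes are bright on this array, and bright genes differed less, so a second background was used. It held 3588 genes with a mean level between 8.20 and 9.96, the lower and upper quartile of the 45. Of these 3588, 55.9% were higher with homogenate, 5.96% passed 1.2-fold, and the median was 0.02. The standard deviation of the differences across genes was 0.09 for the 45 and 0.18 for the genes of like level, where genes are not replicates. The central 50% was of similar width in both, from -0.01 to 0.14 for the 45 and from -0.06 to 0.09 for the genes of like level. The standard deviations thus differ through the outer genes and not through the middle of the spread.

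**Figure D1:**
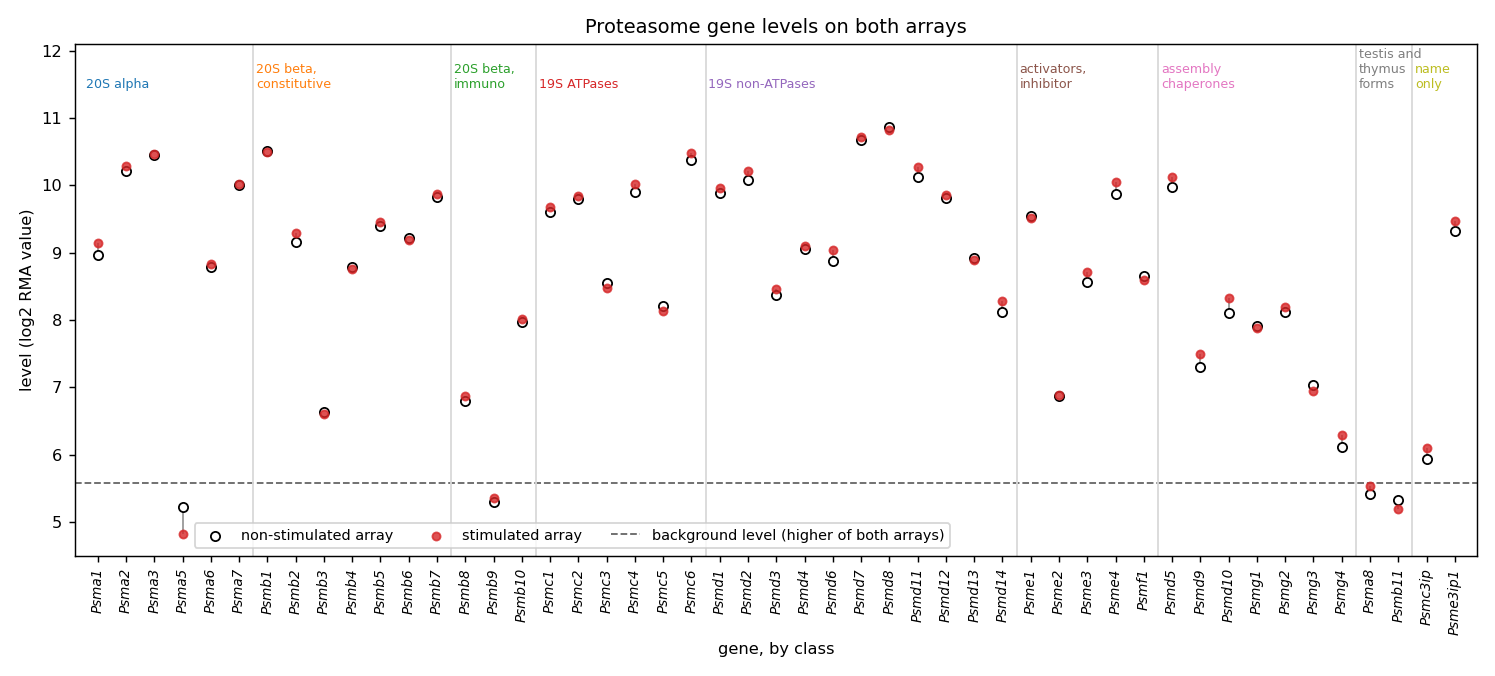
Levels of the 49 genes on both arrays, in log2 RMA values on the vertical axis, with genes ordered by class on the horizontal axis. Open circles are the non-stimulated and red circles the stimulated array, 1 array each, and the dashed line is the background level. The circles of each gene above background nearly coincide, and Psma5, Psmb9, Psma8 and Psmb11 lie under the line.

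**Figure D2:**
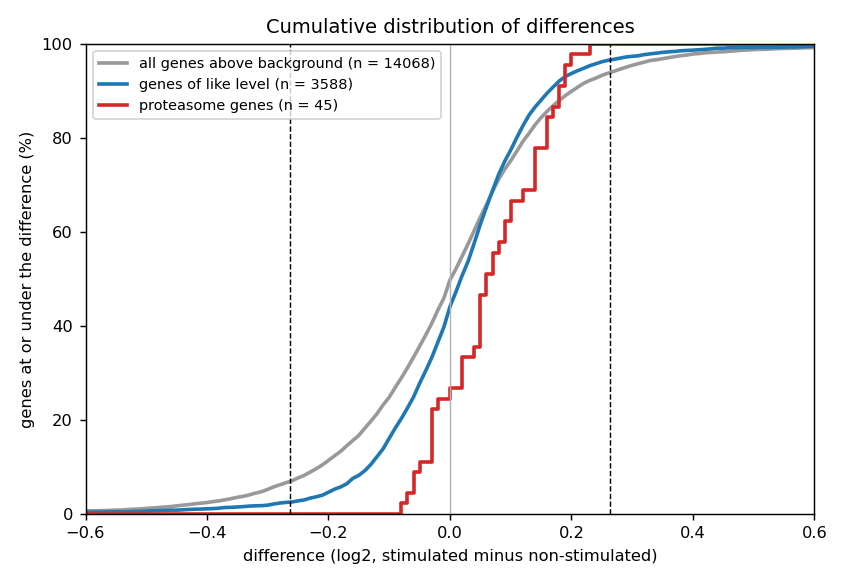
Cumulative share of genes (percent, vertical axis) at or under a given log2 difference (horizontal axis) for the 45 proteasome genes above background, for 3588 genes of like level and for all 14068 genes above background. Dashed lines mark 1.2-fold; the curve of the proteasome genes stays between them and lies to the right of the others around 0.

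A lower threshold shows which genes differed most. At 1.1-fold, 13 of the 45 were higher and none lower, where 17.7% of all genes were higher and 18.6% lower. Among the genes of like level, 13.9% passed 1.1-fold upwards and 9.42% downwards. The 13 were 4 assembly chaperones (Psmd10, Psmd9, Psmg4 and Psmd5), 4 lid or base subunits of the 19S particle (Psmd14, Psmd6, Psmd11 and Psmd2), the activators Psme4 and Psme3, the alpha subunit Psma1, and Psmc3ip and Psme3ip1. No cutting subunit and no ATPase was among them. Psmd2, with a log2 difference of 0.14, lay just inside this threshold and Psmb2, with 0.13, just outside.

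Among the alpha subunits of the 20S particle, 5 of 6 were measured above background. All 5 read higher with homogenate (median difference 0.05), where 50.2% of all genes above background did. Psma1 stood furthest out, at 8.96 without and 9.15 with homogenate, a difference of 0.19. Of all genes above background, 11.3% had a larger positive difference than Psma1. Psma2 read 10.22 and 10.29, and Psma6 read 8.78 and 8.83. The other two were flat to within 0.02, with Psma3 at 10.45 and 10.46 and Psma7 at 10.00 and 10.02. For Psma3 and Psma7 the sign turned when differences were centred on a lowess trend over level, so no direction is given for them. Their place among the higher alpha subunits, and among the higher genes of the 20S core, holds only without this centring. Psma5, an alpha subunit of every 20S particle, read under background on both arrays, at 5.22 and 4.82. Its second probeset was also under background, at 4.59 and 4.78, so this array gave no measured difference for Psma5. Psma4, the remaining alpha subunit, has probesets shared with another gene and is described in the closing section.

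The constitutive beta subunits were split around 0, with 3 of 7 higher, 4 lower and a median of -0.01, where 50.2% of all genes read higher. The cutting subunits came first. Psmb5, which cuts after hydrophobic residues, read 9.40 without and 9.45 with homogenate. Psmb6, which cuts after acidic residues, read 9.22 and 9.18. Psmb7, which cuts after basic residues, read 9.83 and 9.88. None of the 3 differed by more than 0.05. Among the structural beta subunits, Psmb2 had the largest difference, 0.13, from 9.17 to 9.30. The others were lower by less than 0.04, with Psmb1 at 10.51 and 10.50, Psmb3 at 6.63 and 6.60 and Psmb4 at 8.79 and 8.76.

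The immunoproteasome subunits, which interferon-gamma is known to raise, were above background for 2 of 3. Both of these differed by under 0.1 on the log2 scale. Psmb8, which replaces Psmb5, read 6.79 without and 6.87 with homogenate, a difference of 0.08. Psmb10, which replaces Psmb7, read 7.96 and 8.02, a difference of 0.06. Both were above background on both arrays and a little higher with homogenate. Psmb9, which replaces Psmb6, was under background on both arrays, at 5.29 and 5.35, so no difference could be measured for it. Set against its partner, Psmb8 differed by 0.03 more than Psmb5, and Psmb10 by 0.01 more than Psmb7. With differences centred on a lowess trend over level, these values were 0.05 and 0.02. The pair of Psmb9 and Psmb6 has no measured value. The differences of Psmb8 and Psmb10 themselves lay inside the central 95% of all genes above background, which ran from -0.39 to 0.38. They also lay inside the central 50%, which ran from -0.10 to 0.10. Leukocytes carry much of this form, so their markers are given beside it. Of 12 pan-leukocyte markers, 4 were above background without and 5 with homogenate, and the linear signal summed over all 12 was 1270 and 1161. Cd53, a membrane protein of leukocytes, was the brightest of them, at 9.73 and 9.56, and made up most of that sum on both arrays. The next brightest, Cd37, read 6.21 and 6.10. The sum thus mainly follows the probeset of Cd53 and is no measure of leukocyte content. The defining marker Ptprc (CD45) was under background on both arrays, at 4.16 and 3.95. Of 10 macrophage markers, 4 were above background without and 5 with homogenate, and the linear signal summed over all 10 was 498 and 540. The part of these cells in the levels of Psmb8 and Psmb10 was not tested.

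**Figure D3:**
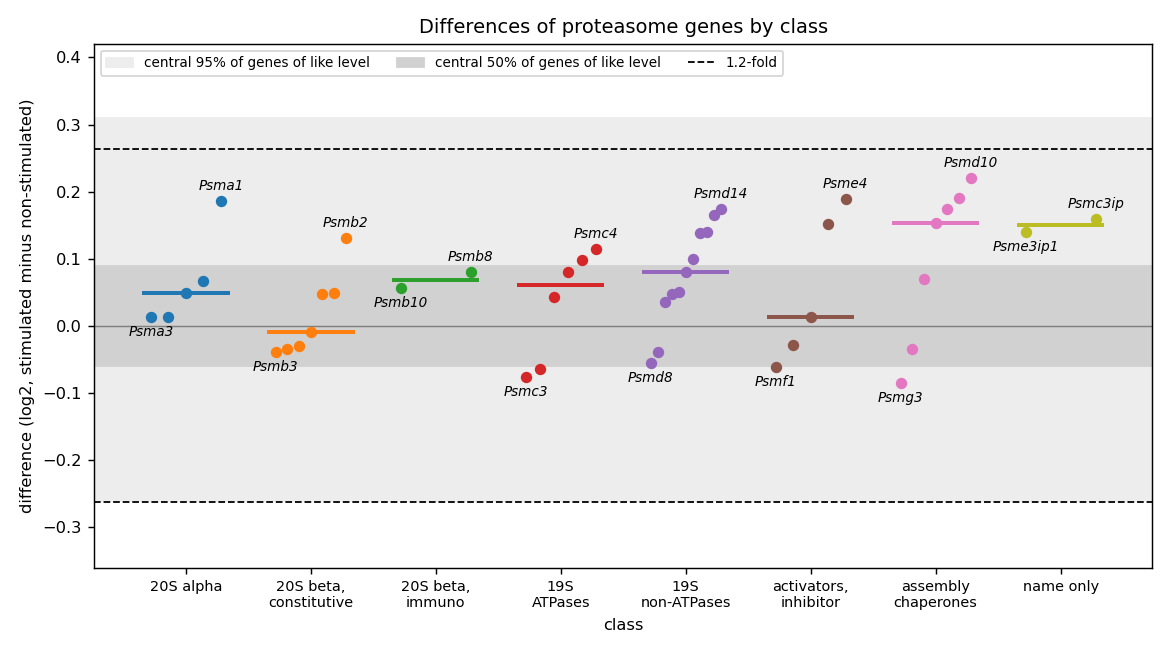
Log2 difference (stimulated minus non-stimulated, vertical axis) of the 45 genes above background, grouped by class on the horizontal axis. Each point is 1 gene, bars are class medians, grey bands are the central 50% and 95% of 3588 genes of like level, and dashed lines mark 1.2-fold; every point lies between the dashed lines, and the chaperone median of 0.15 is the highest of the 7 classes of proteasome genes.

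The promoter stretches of this group show how the genes sit. Psmb9 shares its start region with Tap1, a subunit of the peptide transporter that feeds MHC class I, which is read in the opposite direction. The 225 bases between the starts of both genes (RefSeq, GRCm38.p6, chr17:34187331-34187555, Psmb9 strand, 5′ to 3′) are shown because both genes are read from this one stretch. Printed this way, the stretch begins beside the Tap1 start and ends at the Psmb9 start. Capitals mark an inverted match to CCAAT that begins 8 bases before the Psmb9 start.
Psmb9 to Tap1: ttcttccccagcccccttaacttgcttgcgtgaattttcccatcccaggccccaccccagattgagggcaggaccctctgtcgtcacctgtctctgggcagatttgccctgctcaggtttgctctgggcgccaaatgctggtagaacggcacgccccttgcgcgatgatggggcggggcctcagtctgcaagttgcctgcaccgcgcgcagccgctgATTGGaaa
Psmb8, a neighbour of both, has 1 match to TTCNNNGAA, the palindromic core that STAT factors bind, at 97 bases before its start (chr17:34198073-34198131, plus strand).
Psmb8: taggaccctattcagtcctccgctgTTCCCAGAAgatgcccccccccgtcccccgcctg
Capitals mark the match. Tap1 read 7.74 without and 7.87 with homogenate, a difference of 0.13, beside the unmeasured difference of Psmb9.

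Among the ATPases of the 19S base, which pull substrate into the barrel, 4 of 6 read higher with homogenate and 2 read lower (median 0.06). The share that read higher was 50.2% among all genes above background and 55.9% among the genes of like level. Psmc4 differed most, by 0.11, from 9.90 to 10.02. Psmc6 read 10.38 and 10.47, and Psmc1 read 9.60 and 9.68. These were the 3 ATPases that differed upwards by over 0.05. Psmc2 read 9.80 and 9.84, and its second probeset read 7.52 and 7.51. The lower members were Psmc3, at 8.56 and 8.48, and Psmc5, at 8.20 and 8.14. The 6 ATPases sit in 1 ring in equal number, and their RNA did not differ in 1 direction.

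The non-ATPase subunits of the 19S particle read higher for 9 of 11 genes (median 0.08), where 50.2% of all genes did. Psmd14, the deubiquitinase that takes the ubiquitin chain off a substrate, read 8.11 without and 8.29 with homogenate, a difference of 0.17. Psmd6, a lid subunit, read 8.88 and 9.04. Psmd11, a lid subunit that clamps lid and core together, read 10.13 and 10.27. Psmd2, the scaffold of the base to which shuttle proteins bind, read 10.07 and 10.21. These 4 passed 1.1-fold, and none of the 4 passed 1.2-fold. Psmd3 differed by 0.10 (8.37 and 8.47), and Psmd1, the other large scaffold, by 0.08 (9.88 and 9.96). The ubiquitin receptor Psmd4 read 9.06 and 9.10. Psmd7, the partner of Psmd14, read 10.67 and 10.72, and Psmd12 read 9.80 and 9.85. The lower members were Psmd8, at 10.87 and 10.82, and Psmd13, at 8.92 and 8.88. Over the 19S particle as a whole, 13 of 17 genes were higher, with a median of 0.08, and over the constitutive 20S core 8 of 12, with a median of 0.03. Beside these counts, 50.2% of all genes above background and 55.9% of the genes of like level were higher. Whether these medians differ beyond the error of an array was not tested.

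Of the activators, which can take the place of the 19S particle, and the inhibitor, 3 of 5 read higher, with a median of 0.01. This count is near the 50.2% of all genes that read higher. Psme4, which encodes the nuclear activator PA200, read 9.87 without and 10.05 with homogenate, a difference of 0.19. Psme3, which encodes the nuclear PA28-gamma ring, read 8.56 and 8.71, a difference of 0.15. Psme1 and Psme2 encode the interferon-responsive pair that forms the cytosolic PA28 ring. Psme1 read 9.55 and 9.52, and Psme2 read 6.88 and 6.89. Psmf1, which encodes the inhibitor PI31, read 8.66 and 8.59. Psme3ip1, a partner of PA28-gamma, read 9.32 and 9.46.

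Assembly chaperones had the highest class median, 0.15 over 7 genes, and this rested on those of the 19S particle. All 3 of the latter were higher with homogenate, where 50.2% of all genes were. Psmd10 (gankyrin) read 8.10 without and 8.32 with homogenate, a difference of 0.22 that was exceeded by 8.35% of all genes above background. Psmd9 read 7.30 and 7.49, a difference of 0.19. Psmd5 read 9.97 and 10.13, a difference of 0.15. The chaperones of the 20S core, Psmg1 to Psmg4, had a median of 0.02, with 2 higher and 2 lower. Psmg1 read 7.91 and 7.88, and its partner Psmg2 read 8.12 and 8.19. Psmg3 read 7.03 and 6.94, and its partner Psmg4 read 6.11 and 6.29. The members of each pair thus read in opposite directions, by small differences. Those of Psmg1, Psmg2 and Psmg3 lay inside the central 50% of all genes above background, from -0.10 to 0.10. Psmg4 was close to background, and with background at the 99th percentile of the receptor probesets 42 genes were left and the class median was 0.11.

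Tissue-restricted forms were not measured above background. Psma8, the alpha subunit of the testis, read 5.42 and 5.53. Psmb11, the beta subunit of the thymus cortex, read 5.32 and 5.19. Psmc3ip, the recombination factor, read 5.93 and 6.09, slightly above background.

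Among proteasome parts and partners that do not carry a Psm symbol, 7 of 9 read higher with a median of 0.07, where 50.2% of all genes read higher, and none passed 1.2-fold. Ecpas, which encodes the proteasome adaptor ECM29, had the largest difference, 0.24, from 9.09 to 9.33. It was larger than that of any of the 45 genes. Ivns1abp read 10.40 and 10.52, and Akirin2, which brings proteasomes into the nucleus, read 9.69 and 9.77. The deubiquitinases Uchl5 and Usp14 read 8.35 and 8.45, and 9.15 and 9.22. Txnl1 read 10.13 and 10.21. Pomp, the maturation factor of the 20S core, named after its values were seen, read 9.59 and 9.52.

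Of the genes for transcription of the subunits and for control or processing of its factors, 5 of 9 read higher and 4 read lower (median 0.08). This is near the 50.2% of all genes. Nfe2l1, the regulator of the subunit genes, read 9.05 without and 9.17 with homogenate, a difference of 0.12. Nfe2l2, which encodes the related NRF2, read 10.00 and 10.19, a difference of 0.18. Vcp, the ATPase that extracts NRF1 from the endoplasmic reticulum, read 10.96 and 11.10. Nfe2l3 was the only one past 1.2-fold, at 5.59 and 5.89, and its first value is barely above background. The small Maf genes, whose products pair with these factors, were lower. Maff read 6.90 and 6.68, and Mafk read 7.88 and 7.79. Ubiquitin-related genes had a median of 0.00 over 7 measured of 13 listed, from Ubqln4 (7.38 and 7.26) to Zfand5 (9.22 and 9.36). Of the others, Uba6 read 9.46 and 9.38, Zfand2a 9.04 and 9.10, Ubqln2 8.67 and 8.72, and Ubqln1 9.75 in both. The remaining 6 ubiquitin-related genes are not analysed here.

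NRF1 and NRF2 bind a site with the core TGACNNNGC, so promoters from 250 bases before to 50 after each start were searched on both strands. Of the 49 genes, 41 had a promoter in the RefSeq table (GRCm38.p6), and 6 of the 41 (14.6%) held the core, against 14.0% of all 27025 genes in the table. The 6 were Psmb5, Psmb6, Psmc6, Psmd9, Psmd12 and Psme4. The stretch before the start is shown for 5 of them, with the core in capitals, because these are the members in which the core lies wholly before the start. They lie at chr14:54618009-54618067 (minus strand), chr11:70525323-70525356 (plus), chr14:45329574-45329630 (plus), chr5:123228134-123228189 (plus) and chr11:107479278-107479314 (plus), in the order below.
Psmb5: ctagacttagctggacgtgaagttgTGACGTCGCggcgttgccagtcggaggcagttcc
Psmb6: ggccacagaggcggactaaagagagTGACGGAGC
Psmc6: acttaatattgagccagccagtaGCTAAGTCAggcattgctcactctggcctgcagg
Psmd9: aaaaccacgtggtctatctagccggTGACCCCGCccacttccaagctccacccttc
Psmd12: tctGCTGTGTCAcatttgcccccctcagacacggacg
In Psmc6 and Psmd12 the core reads on the opposite strand. The match of Psme4 begins 7 bases before the start and runs past it. The differences of the 6 ran from -0.03 for Psmb6 to 0.19 for Psmd9, the range that the other members also covered. A match is a description of letters and not a bound site.

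The core of the interferon-stimulated response element, GAAA followed by any 2 bases and GAAA, searched in the same way, was held by 5 of the 41 promoters (12.2%), against 3.99% of all. These were Psmb3, Psmd4, Psmd9, Psme1 and Psmg4, and they did not include Psmb8 or Psmb9, whose promoters were searched. Whether Psmb10 was among the 41 is not given here, so no absence of a match is stated for it. The matches that lie before the start are shown in capitals, since none of the 3 genes is an immunoproteasome subunit (chr11:97703246-97703305, plus strand; chr3:95042660-95042719, minus; chr5:123228006-123228065, plus).
Psmb3: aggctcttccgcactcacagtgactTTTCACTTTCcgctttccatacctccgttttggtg
Psmd4: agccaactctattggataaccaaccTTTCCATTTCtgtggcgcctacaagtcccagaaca
Psmd9: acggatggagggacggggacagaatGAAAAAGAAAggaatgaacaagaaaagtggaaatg
In Psmb3 and Psmd4 it reads on the opposite strand. TTCNNNGAA was in 3 of 41 (7.32%, all genes 9.55%), a site form of NF-kB (GGGA, any base, TTTCC) in 0 of 41 (all genes 0.466%), and CCAAT in 16 of 41 (39.0%, all genes 41.1%). No matches to different motifs overlapped in these 41 genes.

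Genes that supply peptides to MHC class I, the main use of immunoproteasome products, read higher for 10 of 13 genes (median 0.07), where 50.2% of all genes did, and none passed 1.2-fold. Erap1, which trims peptides, differed most, by 0.18, from 8.09 to 8.28. H2-K1, a class I heavy chain, read 8.36 and 8.48, and Pdia3, of the loading complex, read 11.73 and 11.83. Thop1, a peptidase of the cytosol, read 7.12 and 7.22. Tap2, the partner of Tap1, went the other way, at 6.41 and 6.28. Of the genes through which interferon and NF-kB reach the immunoproteasome, 13 of 14 read higher (median 0.11), where 50.2% of all genes did. Relb (7.66 and 7.97) and Irf8 (5.76 and 6.06) were the 2 of 14 past 1.2-fold, which 13.0% of all genes passed. The interferon-gamma receptor genes Ifngr1 and Ifngr2 read 8.84 and 9.01, and 9.60 and 9.76. Ifng itself, at 5.58 and 5.72, was barely above background, and Irf9 was lower, at 8.02 and 7.87. Irf1, a factor known to raise Psmb9, named after its values were seen, read 7.01 and 7.06.

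**Figure D4:**
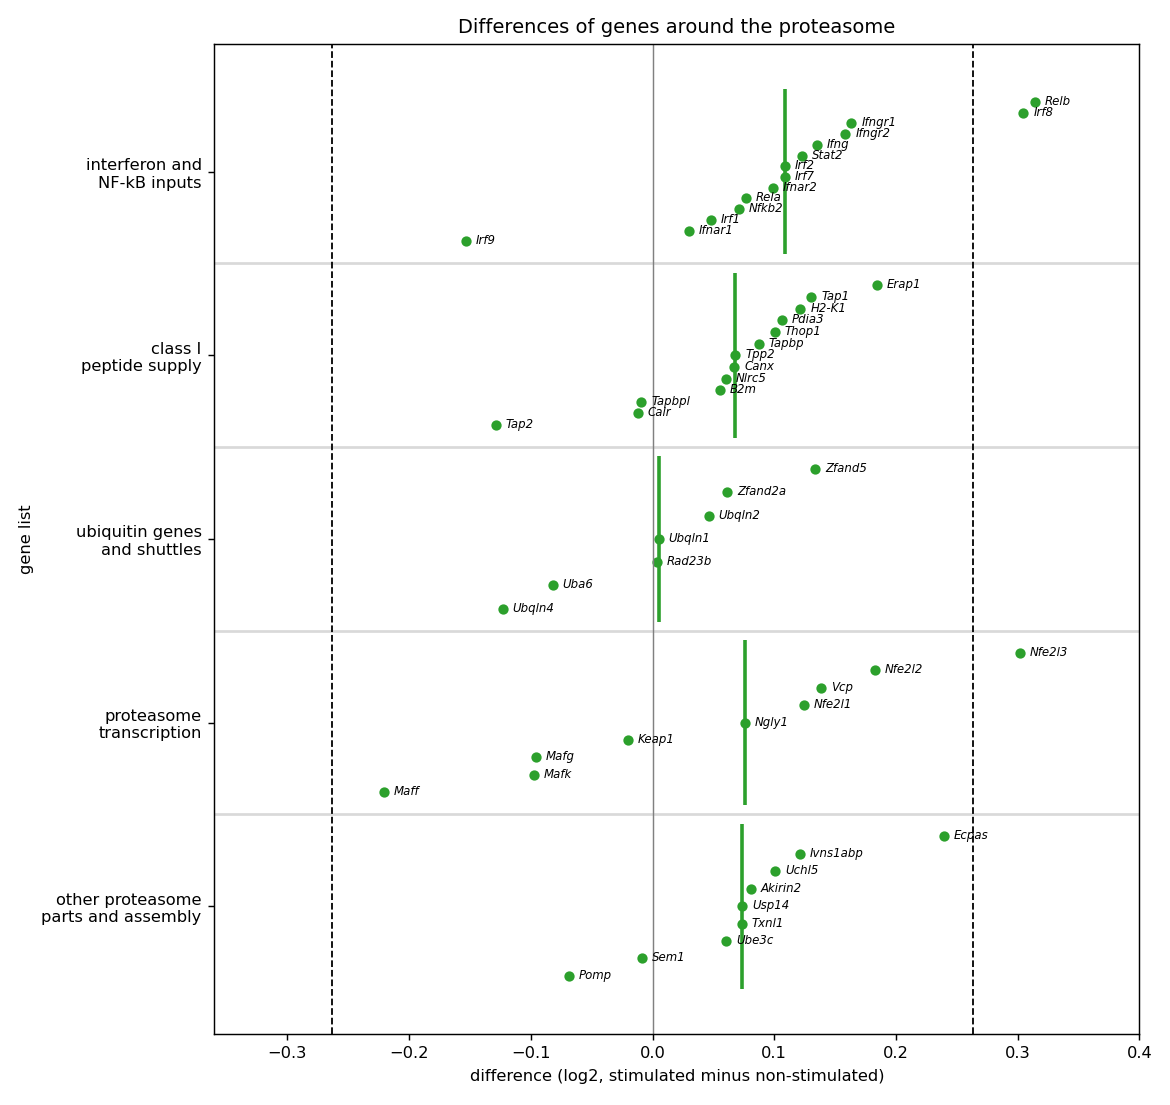
Log2 difference (stimulated minus non-stimulated, horizontal axis) of genes around the proteasome, by list on the vertical axis. Each point is 1 gene above background, green bars are list medians and dashed lines mark 1.2-fold; Relb, Irf8 and Nfe2l3 lie beyond the right line and no gene beyond the left.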

How the data were processed

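Each probeset has 1 log2 value per array, as deposited by the authors. They were made with RMA in Affymetrix Expression Console, per the submitters' processing notes, with versions and build not given in the sources used here. Once sorted, the values of the arrays differed by no more than 0.0757, so any overall shift is removed and each difference is relative to all probesets.

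Of 41345 probesets, 23521 are paired with 1 gene in the platform annotation. Symbols were updated by gene ID with the RefSeq table of GRCm38.p6, which held all 49 members, and the probeset with the highest mean stood for a gene. With 1 pooled array per condition no test was made. The thresholds were 1.2-fold and 2-fold, and 1.1-fold as an alternative. All members above background, up to 6 genes with the largest differences of each companion list, and any gene said to be so were named. Members and lists were chosen with earlier results of these data known. Some list members are not analysed here. Counting was tested on simulated data with a smaller spread across genes than these data, which checks the code only. Work used Python 3.11.15, pandas 2.3.3, numpy 2.4.6 and statsmodels 0.14.6.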

Additional observations from a re-analysis of the deposited data

How the results depend on the processing

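With 1 array per condition the number of arrays limits the precision, and leaving out a replicate was not possible. No paired analysis was possible because each condition has 1 array. With no replicate spread, a shift of a median or partner difference was counted as a change only beyond 0.05 on the log2 scale, which is as large as most of these values, so that their ranges say more than a count of changes. The median of the 45 genes stayed between 0.05 and 0.06 and that of the immunoproteasome subunits between 0.06 and 0.07. The partner difference of Psmb8 and Psmb5 was 0.03, or 0.05 after lowess centring, and that of Psmb10 and Psmb7 was 0.01, or 0.02. Medians of the 20S alpha subunits lay between 0.03 and 0.05, of the 19S ATPases between 0.04 and 0.06 and of the 19S non-ATPases between 0.06 and 0.08. Without the background filter, 1 gene passed 1.2-fold, Psma5, which is under background on both arrays. At 1.1-fold, 13 genes passed. With Psmg1 to Psmg4 alone, chosen after seeing the data, the chaperone median was 0.0171. The median of the constitutive beta subunits lay between -0.02 and 0.02 and that of activators and inhibitor between -0.01 and 0.02, so neither has a direction. Centred on a lowess trend, 31 of 45 genes were higher, and without Psmc3ip and Psme3ip1, also chosen after seeing the data, 31 of 43.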

Other observations

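Probesets that the annotation pairs with a proteasome gene and at least 1 other gene were not used for the comparison. The 2 shared by Psma4, an alpha subunit of every 20S particle, and AY074887 read 9.70 without and 9.79 with homogenate, and 4.93 and 4.79, the latter under background. A probeset shared by Psme2 and 9930111J21Rik1 and 9930111J21Rik2 read 7.74 and 7.63, lower with homogenate by 0.12, while the probeset of Psme2 alone differed by 0.01. A probeset shared by Armc9 and Psmd1 was lower with homogenate, with a difference of -0.13, against 0.08 for Psmd1 alone. The second probeset of Psmg2 was under background, at 5.42 and 5.29.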
